A study of Arabidopsis thaliana and Ginkgo biloba and Brassica rapa with 13 samples.

Results

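The small ribosomal RNAs for which no 5-methylcytosine (m5C) site was called in the deposited tables were described: nuclear 5.8S, chloroplast 4.5S, chloroplast 5S and mitochondrial 5S rRNA. Members were taken by name and genome from the reference sequences, which gave 20 of the 63 rRNA references of the series. They are compared with the 35 references of the large rRNAs (nuclear 25S and 18S, chloroplast 23S and 16S, and the mitochondrial large and small subunit rRNAs). The other 8 references were left out. Of these, 6 are lines labelled nuclear 5S that hold 5.8S sequence, and 2 are the chloroplast 3S and 7S fragments of 1 alga.

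In RNA bisulfite sequencing (RBS-seq) cytosines without a methyl group are deaminated and appear as T in the reads, and a cytosine that stays unconverted is a candidate m5C. The series held 8 RBS-seq and 5 RNA-seq libraries of total RNA from wild type material of 6 species, with no treatment. The samples were seedlings of Arabidopsis thaliana grown on soil for 10 days (3 RBS-seq libraries), flag leaf of Triticum turgidum subsp. durum (here T. durum), leaf of Brassica rapa and Ginkgo biloba, fronds of the alga Caulerpa taxifolia and log phase cells of the alga Nannochloropsis oculata. Every species other than A. thaliana had 1 RBS-seq and 1 RNA-seq library. For B. rapa and G. biloba the labels name leaf, whereas the methods name the shoot apex. Species, tissue and library therefore cannot be told apart, and the site counts carry no replicate error. The authors counted a site where at least 20% of reads kept the cytosine at a minimum coverage. No read depth per rRNA stands beside these counts, so a reference with 0 sites could be unmethylated or little covered, and which of these holds was not tested.

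Each ribosome carries small rRNAs beside its long ones. In the cytosolic ribosome, 5.8S rRNA pairs with 25S rRNA in the large subunit and matches the 5′ end of bacterial 23S rRNA. In chloroplasts of land plants, the 3′ end of the 23S rRNA is cut off as a separate 4.5S rRNA. The 5S rRNA is a further large subunit component that lies near the central protuberance, and in plants the chloroplast and the mitochondrion encode their own. The m5C sites known in rRNA of yeast and bacteria lie in the long rRNAs, at positions near the decoding and peptidyl transferase centres, and several of them are made by methyltransferases of the NOP2 and RsmB families. In human cells, however, the paper cites an m5C site in 5S rRNA, a small rRNA.

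The A. thaliana sequences of the 4 small rRNAs are shown because every comparison is made against them. Capitals mark the cytosines that were also cytosine in every other species with that rRNA.
A. thaliana nuclear 5.8S: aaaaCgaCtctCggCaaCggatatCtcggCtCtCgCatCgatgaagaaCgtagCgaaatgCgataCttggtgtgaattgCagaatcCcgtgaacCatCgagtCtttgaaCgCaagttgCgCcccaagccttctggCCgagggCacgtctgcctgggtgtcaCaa
A. thaliana chloroplast 4.5S: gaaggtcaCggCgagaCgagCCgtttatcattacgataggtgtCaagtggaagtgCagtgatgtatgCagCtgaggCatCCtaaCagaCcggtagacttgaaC
A. thaliana chloroplast 5S: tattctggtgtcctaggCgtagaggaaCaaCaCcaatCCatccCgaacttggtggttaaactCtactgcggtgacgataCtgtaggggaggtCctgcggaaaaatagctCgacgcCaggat
A. thaliana mitochondrial 5S: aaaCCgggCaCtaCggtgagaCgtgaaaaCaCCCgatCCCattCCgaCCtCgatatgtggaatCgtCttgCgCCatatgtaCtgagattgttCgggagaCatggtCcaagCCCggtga

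These 4 sequences were placed on the TAIR10.1 genome of A. thaliana by exact match. The 5.8S sequence occurred at chr2:5782-5945 and at chr3:14199753-14199916, both on the plus strand. The copy on chromosome 3 is AT3G41979, the locus named as the 5.8S reference, and is annotated as 5.8S ribosomal RNA. The copy on chromosome 2 is AT2G01020, which the RefSeq annotation calls 5S ribosomal RNA although its 164 bases are those of 5.8S. AT2G01020 is also the locus named for the A. thaliana line labelled nuclear 5S, and for the guide of that line in the other 5 species. The sequence of the line equalled 5.8S in 5 of the 6 species and differed from it at 1 base in N. oculata, so no value for nuclear 5S rRNA can be given. The 4.5S sequence (ATCG00960) lies at 2 places in the chloroplast genome, 107599 to 107701 on the plus strand and at 130948 to 131050 on the minus strand, each annotated as 4.5S rRNA. The chloroplast 5S sequence (ATCG01160) likewise matched at 107949 to 108069 (plus) and at 130580 to 130700 (minus). The minus strand copy is annotated as 5S rRNA and no gene is annotated at the plus strand copy. The mitochondrial 5S sequence (ATMG01380) matched at 126001 to 126118 of the mitochondrial genome (minus), where a 5S rRNA is annotated.

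The small rRNAs held few cytosines. The 20 references had 628 cytosines and 0 called sites, against 18122 cytosines and 52 called sites in the 35 large references. Relative to the cytosines of the large rRNAs the called sites came to 0.287% (exact Clopper-Pearson 95% interval 0.214% to 0.376%), or 1 site for every 348.5 cytosines. For 1 of the 52 sites, in chloroplast 23S rRNA of N. oculata, the reference had no cytosine at the aligned position, and without it the share was 0.281% (51 of 18122). A count of 0 among 628 cytosines allows a share of up to 0.478%, which lies above the share of the large rRNAs. With so few cytosines a difference between small and large rRNAs was not detectable. Both limits cover counting error alone and treat the same position in several species as separate cytosines.

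At the rate of the large rRNAs of the same species, 1.77 sites would be expected in the 20 small references together. Per species the 4 small rRNAs of A. thaliana would hold 0.263 sites, those of B. rapa 0.266, those of G. biloba 0.275 and those of T. durum 0.518. The 2 small rRNAs of C. taxifolia would hold 0.206 sites and those of N. oculata 0.239. The rate of N. oculata rests on 5 large references, without its mitochondrial small subunit rRNA, against 6 in each other species. The expected number was below 1 in every species, and the upper bound of its interval was also below 1 in every species, with the highest at 0.868 in T. durum. The large rRNAs of T. durum had 14 called sites, against 7 to 9 in the other species. Without the 6 sites that lie close together in T. durum 18S rRNA, which were called in that species alone, T. durum would hold 0.296 sites, near the other land plants, and the total was 1.54.

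**Figure D1:**
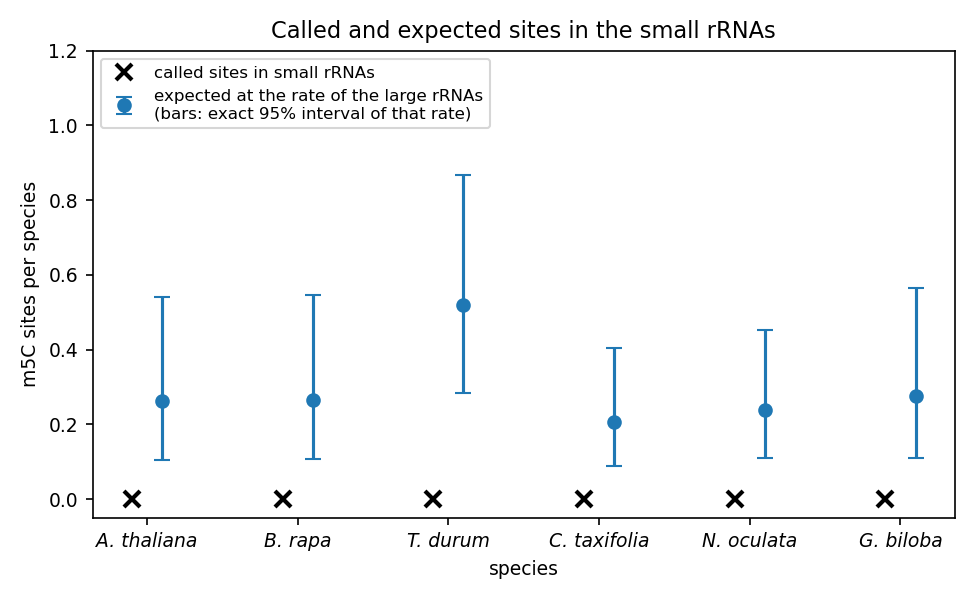
Called sites in the small rRNAs (crosses) and sites expected at the per-cytosine rate of the large rRNAs (circles, with bars for the exact 95% interval of that rate) for each of 6 species; the vertical axis gives m5C sites per species. All crosses lie at 0 and all circles below 0.52, with T. durum highest (0.296 without its 18S cluster).

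By rRNA, 5.8S carried the largest part of the expectation, 0.762 sites from 262 cytosines in 6 references. Chloroplast 5S followed with 0.483 sites from 168 cytosines in 6 references. Mitochondrial 5S had 0.325 sites from 122 cytosines in 4 references, and 4.5S had 0.197 sites from 76 cytosines in 4 references. A count of 0 allows a called share of up to 1.15% of cytosines in 5.8S, 1.79% in chloroplast 5S, 2.46% in mitochondrial 5S and 3.95% in 4.5S. Each of these limits is above the called share in the large rRNAs of the same genome, which was 0.248% (18 of 7268) for the nucleus, 0.324% (19 of 5862) for the chloroplast and 0.3005% (15 of 4992) for the mitochondrion.

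Homologous positions recur in each species, so the expectation was also computed over aligned positions that hold a cytosine in at least 1 species. There were 158 such positions in the small rRNAs, against 4570 in the large rRNAs, of which 16 were called in at least 1 species. At that rate 0.553 sites would be expected in the small rRNAs. Of the 16 positions, 6 are the T. durum 18S cluster, and without them the expectation was 0.346.

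The small rRNAs were 95 to 164 bases long, against 1474 to 3393 bases for the large rRNAs. Nuclear 5.8S was the longest, with 164 bases in A. thaliana, B. rapa, T. durum and C. taxifolia and 162 bases in N. oculata and G. biloba. Its cytosine count was 44 in A. thaliana, 45 in B. rapa, 49 in T. durum, 41 in C. taxifolia, 38 in N. oculata and 45 in G. biloba. T. durum thus held the most cytosines and N. oculata the fewest. Chloroplast 5S was 121 bases with 28 cytosines in A. thaliana, B. rapa and T. durum, 122 bases with 29 in C. taxifolia, 116 bases with 24 in N. oculata and 119 bases with 31 in G. biloba. Mitochondrial 5S was 118 bases with 31 cytosines in A. thaliana, 119 with 30 in B. rapa, 122 with 30 in T. durum and 117 with 31 in G. biloba. The 4.5S rRNA was 103 bases with 20 cytosines in A. thaliana, B. rapa and G. biloba, and 95 bases with 16 cytosines in T. durum. The 5.8S of C. taxifolia held 2 undetermined bases and the mitochondrial 5S of G. biloba held 3.

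Cytosine made up 24.4% of the bases of the small rRNAs (exact 95% interval 22.7% to 26.1%) and 22.8% of the bases of the large rRNAs (22.6% to 23.1%), intervals that overlap. Both intervals treat the same position in several species as separate bases. The 4 small rRNAs differed among themselves. The 5.8S was richest in cytosine (23.5% to 29.9%, median 27.1%), followed by mitochondrial 5S (24.6% to 27.2%, median 25.7%) and chloroplast 5S (20.7% to 26.1%, median 23.1%), and neighbours in this order overlapped across species. The 4.5S was poorest (16.8% to 19.4%, median 19.4%) and did not overlap any of the other 3. Within a genome, 5.8S had a higher cytosine share than the nuclear large rRNAs in 6 of 6 species, for example 29.9% in 5.8S and 25.1% in the large rRNAs of T. durum. Mitochondrial 5S also exceeded the mitochondrial large rRNAs in 4 of 4 species, for example 27.2% and 22.8% in G. biloba. The chloroplast small rRNAs, which include 4.5S in land plants alone, had 23.8% cytosine in C. taxifolia, against 21.4% in the large rRNAs, and 20.7% in N. oculata for both. In the 4 land plants they were below the large rRNAs. In A. thaliana they had 21.4% cytosine, against 23.7% in the chloroplast large rRNAs.

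**Figure D2:**
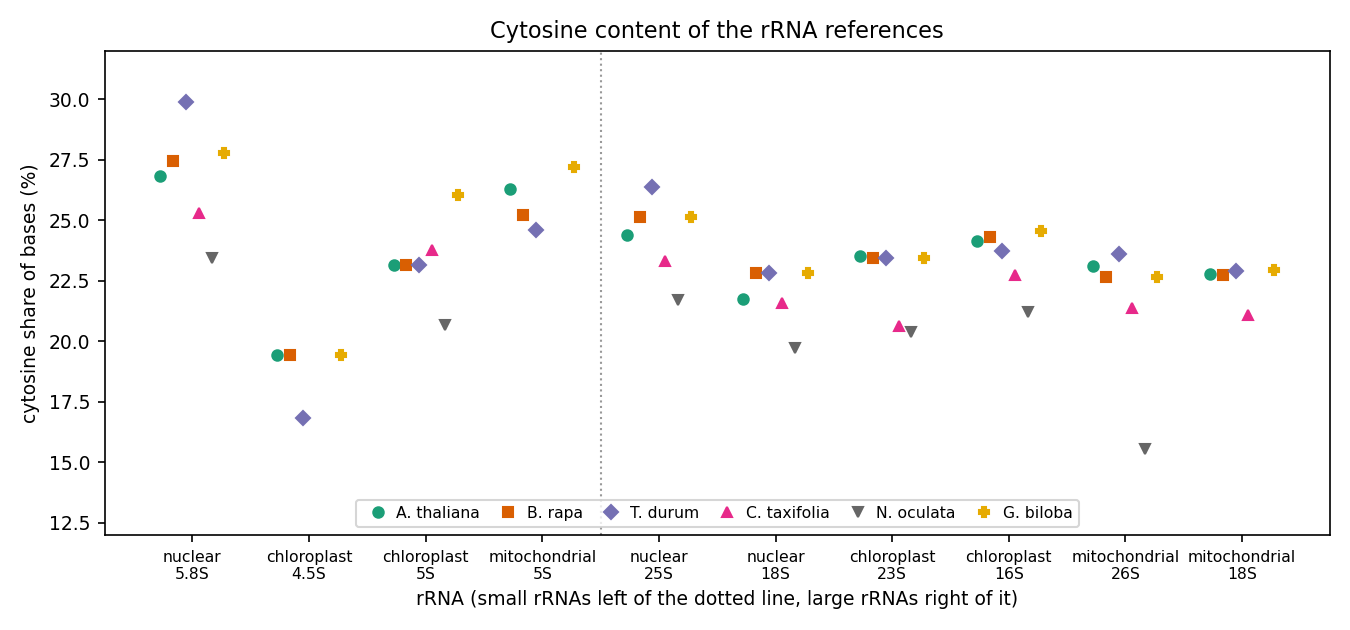
Cytosine share of bases, in percent, for each rRNA (horizontal axis, small rRNAs left of the dotted line and large rRNAs right of it) in each species (symbols). The 4.5S points lie between 16.8% and 19.4%, below the other small rRNAs, and 5.8S reaches 29.9% in T. durum.

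Most small rRNA references were close to those of A. thaliana. Across 16 pairs identity to A. thaliana was 58.2% to 100% with a median of 94.1%, against 56.7% to 98.9% with a median of 88.9% across 29 pairs of large rRNAs. The medians cover unlike mixes of species, because the 4.5S and mitochondrial 5S lines came from land plants only. Algae thus made up a smaller part of the small pairs, and the medians do not compare conservation of small and large rRNAs. In 5.8S it was 99.4% in B. rapa, 93.3% in T. durum, 91.5% in G. biloba, 85.2% in C. taxifolia and 73.2% in N. oculata. In chloroplast 5S it was 100% in B. rapa, 95.9% in T. durum, 94.96% in G. biloba, 65.5% in N. oculata and 58.2% in C. taxifolia. Both algae were therefore below all land plants in each of these rRNAs. The mitochondrial 5S, for which only land plants had a reference line, had 99.2% in B. rapa, 95.7% in G. biloba and 91.8% in T. durum. The 4.5S was 100% in B. rapa, 95.1% in G. biloba and 82.5% in T. durum. Over the same 3 land plants, pooled identity was 96.95% in chloroplast 5S, 95.5% in mitochondrial 5S, 94.7% in 5.8S and 92.6% in 4.5S. Of the 20 small references, 12 were consensus sequences of RNA-seq reads guided by another reference, among them 5 of the 6 for 5.8S, and how far the guide shaped them was not tested. The B. rapa reference equalled that of G. biloba in 0 of 4 small rRNAs, against 4 of 6 large rRNAs, and equalled that of A. thaliana in 4.5S and chloroplast 5S.

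**Figure D3:**
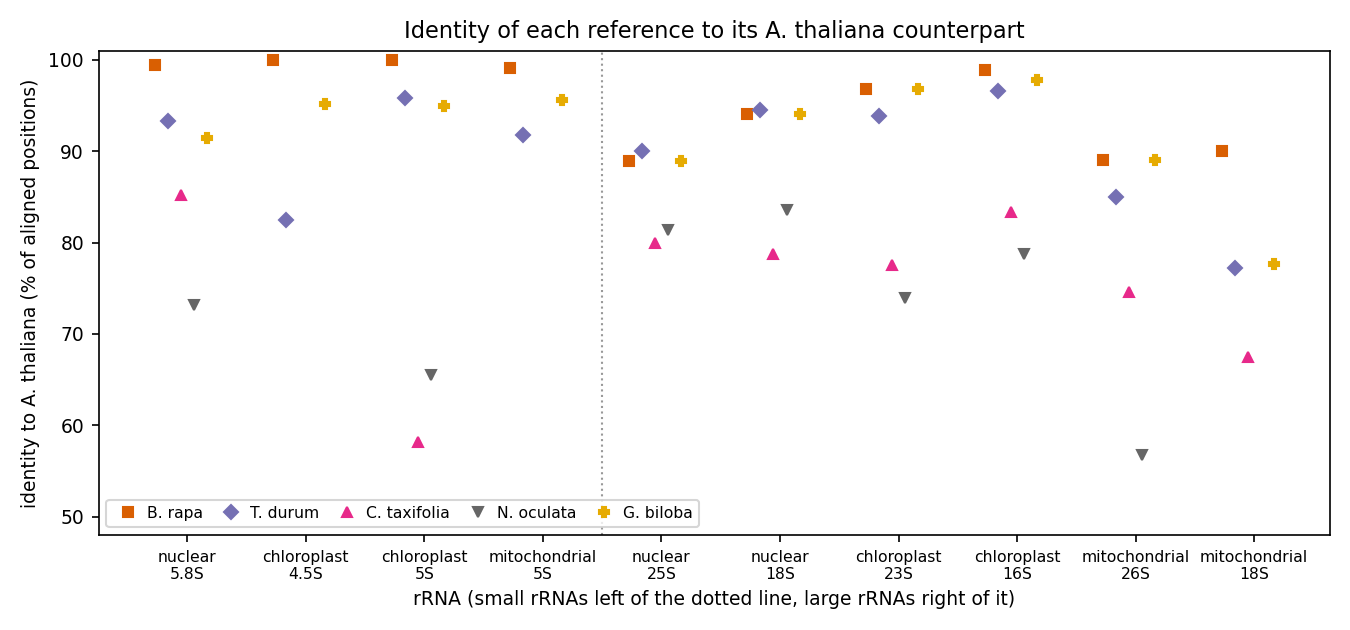
Identity to the A. thaliana reference, in percent of aligned positions, for each rRNA (horizontal axis, small rRNAs left of the dotted line and large rRNAs right of it) and species (symbols). Chloroplast 5S of the algae C. taxifolia (58.2%) and N. oculata (65.5%) lies lowest among the small rRNAs.

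The 4.5S of T. durum stood apart from the other land plants and is shown with that of G. biloba. Capitals mark bases that differ from A. thaliana or face a gap in it.
T. durum chloroplast 4.5S: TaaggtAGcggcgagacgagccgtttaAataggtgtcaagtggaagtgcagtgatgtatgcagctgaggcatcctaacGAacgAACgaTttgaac
G. biloba chloroplast 4.5S: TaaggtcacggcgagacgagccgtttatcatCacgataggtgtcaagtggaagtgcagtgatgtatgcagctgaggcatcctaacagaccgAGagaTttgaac
T. durum had 10 substitutions and lacked 8 bases that A. thaliana has, 3 of them cytosines. G. biloba had 5 substitutions and no gap. Between the variable ends lay the longest run shared by all 4 land plants, 50 bases from position 36 to 85 of the A. thaliana rRNA with 8 cytosines (capitals): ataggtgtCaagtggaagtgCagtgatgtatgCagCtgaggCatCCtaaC.

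In the algae the 4.5S sequence was found inside the 23S reference. A local alignment of A. thaliana 4.5S matched the 3′ end of the chloroplast 23S rRNA of N. oculata, at positions 2856 to 2947 of 2950, with 77.5% identity over 102 aligned columns. In C. taxifolia it matched positions 2420 to 2508 of 2515 with 67.7% identity over 99 columns. The 23S reference of C. taxifolia is a consensus guided by another reference, and the part of that guide in the match was not tested. In the 4 land plants, whose 4.5S has its own line, the best match within 23S was a stretch of 21 bases. The matched segment held 17 cytosines and 0 called sites in each alga. The nearest called site of the 23S rRNA lay 856 bases before the segment in N. oculata and 831 bases before it in C. taxifolia.

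The cytosines themselves were largely retained. Of the 123 cytosines of the A. thaliana small rRNAs, 85 (69.1%) were cytosine in every other species with that rRNA, as were 278 of the 383 other bases (72.6%). In the large rRNAs, 1748 of 3271 cytosines (53.4%) and 6559 of 10716 other bases (61.2%) were retained. Because 4.5S and mitochondrial 5S lines came from land plants only, the count was repeated over the 4 land plants. It was then 111 of 123 cytosines (90.2%) in the small rRNAs, against 2734 of 3271 (83.6%) in the large rRNAs. This order did not hold for each rRNA. The small rRNAs ran from 75% in 4.5S to 96.8% in mitochondrial 5S. Chloroplast 16S (93.9%), chloroplast 23S (93.3%) and nuclear 18S (90.8%) were above the pooled small value. Nuclear 25S (85.1%), mitochondrial 26S (77.2%) and mitochondrial 18S (59.9%) were below it. In 4 of 6 large rRNAs the B. rapa and G. biloba references were the same sequence. The other bases were retained at 88.5% in the small rRNAs and 84.4% in the large rRNAs, so that in the small rRNAs cytosines were below the other bases over 6 species and above them over the land plants.

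Mitochondrial 5S kept 30 of 31 cytosines among its 4 species, and the exceptions at the remaining position were C107T in B. rapa and C107A in T. durum (the A. thaliana base first, with positions counted from 1 at its 5′ end). Its longest invariant run covered positions 19 to 52 and held 13 cytosines (capitals): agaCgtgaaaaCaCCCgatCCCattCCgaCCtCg. The 4.5S kept 15 of 20 cytosines. The 5.8S kept 28 of 44 cytosines across 6 species, 16 of 18 on the 5′ side (positions 1 to 82) and 12 of 26 on the 3′ side (positions 83 to 164). Its longest run was positions 52 to 66, agCgaaatgCgataC. Chloroplast 5S kept 12 of 28 cytosines across 6 species and 26 of 28 across the 4 land plants. Where a cytosine of A. thaliana was not retained, the other species had T in 36 cases, G in 11, A in 8 and a gap in 6.

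**Figure D4:**
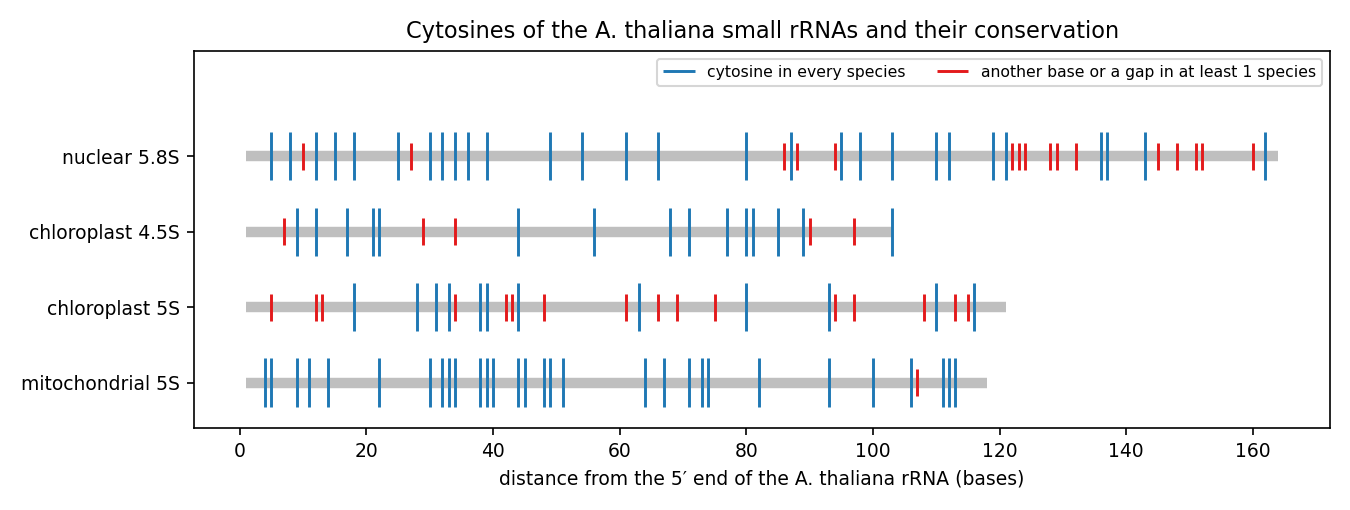
Cytosines of the 4 A. thaliana small rRNAs by distance from the 5′ end in bases (grey bars give each rRNA's length). Long blue ticks mark cytosines found in every species with that rRNA. Short red ticks mark those with another base or a gap in at least 1 species. Red ticks are 14 of 26 on the 3′ side of 5.8S, and mitochondrial 5S has 1. In chloroplast 5S only 7 of 14 ticks on the 5′ side and 5 of 14 on the 3′ side are blue.

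The 5.8S and mitochondrial 5S of T. durum are shown because their differences from A. thaliana were of unlike kinds. Capitals mark bases that differ from A. thaliana or face a gap in it.
T. durum nuclear 5.8S: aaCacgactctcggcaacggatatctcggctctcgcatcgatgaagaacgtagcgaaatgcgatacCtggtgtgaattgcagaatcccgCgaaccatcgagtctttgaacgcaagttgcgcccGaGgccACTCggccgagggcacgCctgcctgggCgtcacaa
T. durum mitochondrial 5S: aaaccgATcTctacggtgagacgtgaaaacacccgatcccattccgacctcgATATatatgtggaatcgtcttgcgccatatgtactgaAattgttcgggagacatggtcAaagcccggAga
The 5.8S of T. durum differed at 11 positions, 7 of them exchanges between C and T. The mitochondrial 5S had 4 inserted bases and 6 substitutions, none between C and T. Bisulfite reads were aligned to references with every C turned into T, and in that alphabet identity of T. durum 5.8S to A. thaliana was 97.6%, against 93.3% in the original alphabet.

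Conversion also reduces the differences between rRNAs of the same species, on which the placement of reads rests. No window of 31 bases in any of the 20 small references occurred in another reference of that species, apart from the lines labelled nuclear 5S, either before or after every C was turned into T. The longest run shared with another reference was 9 to 12 bases before conversion and 11 to 14 bases after it. For 5.8S, the nuclear 5S line shared 134 of 134 windows in A. thaliana, B. rapa and T. durum, 132 of 132 in C. taxifolia and G. biloba, and 126 of 132 in N. oculata. Reads of 5.8S could thus be placed on either line, and both lines had 0 called sites in each species. The mitochondrial and chloroplast 5S of a species were 44.3% to 47.5% identical.

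The sequence around the called sites of the large rRNAs was looked for in the small rRNAs. For 51 of the 52 called sites the reference had a cytosine at the aligned position, and the 5 bases centred on it were searched in the same species. Of the 628 cytosines in small rRNAs, 16 (2.55%) had the 5 bases of a called site, as did 655 of the 18071 uncalled cytosines (3.62%) in the large rRNAs. Of the 16, 11 fall at 3 positions that recur across species. The species are not independent here. The A. thaliana and B. rapa references are identical in 4.5S and chloroplast 5S, and the mitochondrial 5S of T. durum and G. biloba was guided by that of A. thaliana. In 4.5S, C81 of A. thaliana, B. rapa and G. biloba and C74 of T. durum lie in TCCTA, the bases around C1940 of chloroplast 23S rRNA, which was called at 70% in A. thaliana (the authors' mean), 83% in B. rapa, 88% in T. durum and 85% in G. biloba. C13 of chloroplast 5S lies in the same TCCTA in A. thaliana, B. rapa and T. durum. In mitochondrial 5S, C33 of all 4 land plants lies in ACCCG, the bases around C1977 of chloroplast 23S rRNA, called at 82% in A. thaliana (the authors' mean), 90% in B. rapa, 91% in T. durum and 90% in G. biloba. The others were C121 and C123 of 5.8S, C44 of chloroplast 5S and C34 of mitochondrial 5S in T. durum, in CGCCC or CCCGA, and C39 of chloroplast 5S in N. oculata, in TTCGA. C. taxifolia had none. The contexts CGCCC and CCCGA come from the clustered sites of T. durum 18S rRNA, which account for 4 of the 16.

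Base pairing was predicted for each small rRNA folded alone at 37 C. Pairing with 25S, 23S or proteins in the ribosome is not part of this prediction. The mean pairing probability of the cytosines was 0.65 over all 628, and 214 of them were below 0.5. Per reference it ranged from 0.62 to 0.70 in 5.8S, from 0.67 to 0.68 in 4.5S, from 0.63 to 0.72 in chloroplast 5S and from 0.49 to 0.68 in mitochondrial 5S. Cytosines had a higher mean than the other bases in 17 of the 20 references. The references of A. thaliana and B. rapa are identical in 4.5S and chloroplast 5S, so their values there repeat. No large rRNA was folded, so whether this order is particular to the small rRNAs was not tested. The exceptions were mitochondrial 5S of T. durum (0.54 for cytosines and 0.56 for other bases), mitochondrial 5S of G. biloba (0.49 and 0.54) and chloroplast 5S of C. taxifolia (0.63 and 0.67). The 2 mitochondrial exceptions also had the weakest folds of that rRNA, with predicted free energies of -25.3 and -22.4 kcal/mol, against -36.6 in A. thaliana and -36.5 in B. rapa. Both exceptions are consensus sequences guided by the A. thaliana reference, and that of G. biloba begins with 3 undetermined bases. The A. thaliana and B. rapa references came from databases. The part of these differences between references in the folds was not tested. Among cytosines in the bases of a called site, C13 of chloroplast 5S in A. thaliana had a pairing probability of 0.033 and C81 of 4.5S one of 0.61.

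**Figure D5:**
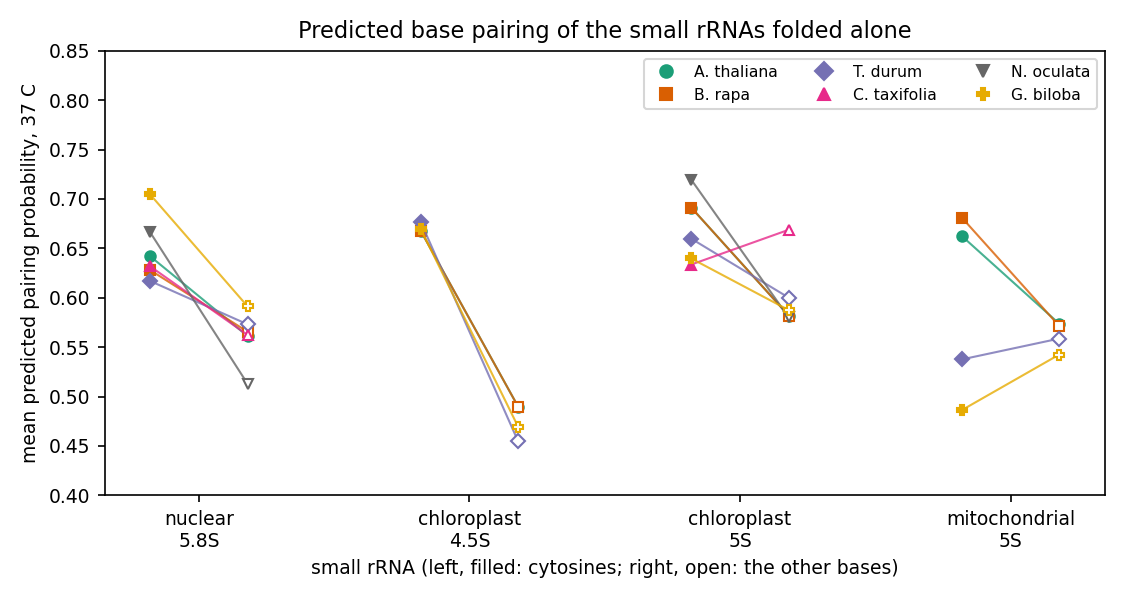
Mean predicted pairing probability at 37 C of the cytosines (left, filled symbols) and the other bases (right, open symbols) of each small rRNA folded alone; a line joins the values of 1 reference. The line falls in 17 of 20 references, and rises in mitochondrial 5S of T. durum and G. biloba and in chloroplast 5S of C. taxifolia.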

How the data were processed

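Site counts and reference sequences were read from the deposited table of references, and percentages of unconverted cytosine from a second deposited table, treated as a score because the authors placed lengths and base letters in the same columns. The authors aligned trimmed reads with CLC Genomics Workbench (version not given in the sources used here) to references with every C turned into T. They called sites by a minimum coverage and at 20% or more, and checked conversion with an in vitro transcribed RNA. References came from databases or from RNA-seq reads guided by another sequence. The A. thaliana value is the authors' mean of 3 libraries. Builds in the submitters' processing notes name TAIR10.

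Members and lists were chosen with earlier results of these data known, and the members were named for having 0 sites, so no test was made. All members are named. Multiple alignments, 1 per rRNA, were made in MAFFT 7.526 with its local pair mode and 100 iterations. Identity left out N and end gaps and counted internal gaps as differences. Pairwise alignments used Biopython 1.88 (match 2, mismatch -3, gap opening -5, extension -2). Folding used ViennaRNA 2.7.2. Intervals are exact Clopper-Pearson at 95% (SciPy 1.17.1), and an observed 0 was taken to allow 3 counts. The identity functions were tested on simulated data. For N. oculata the small subunit rRNA of the mitochondrion was left out.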

Additional observations from a re-analysis of the deposited data

Results flagged for a closer look

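The 3 values that lay farthest from the others by Dixon's criterion, among 15 groups of 4 to 6 species values, all belonged to T. durum. Its 4.5S rRNA was shortest, with 95 bases, against 103 in A. thaliana, B. rapa and G. biloba. The same rRNA held 16 cytosines, against 20 in each of the others. In both groups the other 3 values were tied, so any gap would meet the criterion, and the sequences of A. thaliana and B. rapa were identical. The T. durum 4.5S is a consensus guided by another chloroplast sequence, and the part of that guide in the value was not tested. The expected number of sites was highest in T. durum, at 0.518, against 0.206 to 0.275 in the other species, and was 0.296 without the 6 clustered sites of its 18S rRNA. Chance meets the criterion in about 1 of 20 groups without ties.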

How the results depend on the processing

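Over 57 alternatives for 6 results, 47 left the value within 1.5 times (counts) or within its interval or spread, and 10 moved it. For the retained cytosines (85 of 123), leaving out species can only raise the count. Its ceiling of 123 lies within 1.5 times of 85, so those alternatives could not have moved it. Expected sites ranged from 1.22 (sites shared by all species) to 1.83 over the alternatives that count cytosines of each species. They were 0.553 over distinct aligned positions, and 0.346 over those positions without the T. durum 18S cluster. Identity of the small rRNAs to A. thaliana, 88.7% over pooled positions, was 91.8% after every C was turned into T, 94.99% in land plants, and 85.2% to 91.6% when a species was left out (85.2% without B. rapa, 91.1% without C. taxifolia, 91.6% without N. oculata and 87.0% without G. biloba). The cytosine share of large rRNAs was 22.6% to 23.4% when a species was left out, highest without N. oculata. The mean pairing probability was 0.53 at 70 C, with 290 of 628 cytosines below 0.5. The land plant and aligned position alternatives, and that of sites with a reference cytosine (1.74 expected sites), were chosen after seeing the data. No paired analysis was possible because no result comes from a test and the site counts carry no replicate numbers. Read depth per rRNA was not used here, so coverage of the small rRNAs limits every count of 0.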
